A study of Mus musculus with 12 samples.

Results

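Matrix metalloproteinases (MMPs) are zinc-dependent proteinases that cut extracellular matrix and many secreted proteins, and the tissue inhibitors of metalloproteinases (TIMPs) bind and block them. The genes described here are 8 MMP genes (Mmp2, Mmp8, Mmp9, Mmp12, Mmp13, Mmp14, Mmp19 and Mmp27) and 2 TIMP genes (Timp1 and Timp2), taken by symbol from the 56748 genes of the count table. All 10 of 10 passed the filter on low counts, as did 15033 genes of the table. The other 17 Mmp and Timp genes of the table are given beside them, and 8 of these passed.

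The cells were bone marrow-derived macrophages (BMDM) of female C57BL/6J mice, grown with M-CSF at 20 ng/mL and turned M2-like with IL4 at 10 ng/mL for 48 hours. All 4 conditions share this treatment, and each then ran for 72 hours with 3 libraries, given as 3 mice per condition. Whether the conditions shared mice is not stated. Untreated control cells got plain medium. A second condition got supernatant of YUMM5.2 eGFP cells, a mouse melanoma line carrying a doxycycline (Dox)-inducible eGFP vector. Another condition got supernatant of YUMM5.2 Ifnb1eGFP cells, whose vector also holds Ifnb1, diluted to IFNβ at 1500 pg/mL, and the eGFP supernatant was thinned by the same factor. The last got recombinant IFNβ (rIFNβ) at 1500 pg/mL. Both donor lines had been kept in Dox at 1 µg/mL for 72 hours, and untreated and rIFNβ cells got no supernatant. What the supernatants held beside IFNβ, such as tumor cell products or carried-over Dox, cannot be told apart here. The macrophages were cultured without tumor cells, and transcripts, not enzyme activity, were measured.

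As background, most MMPs are made as inactive proenzymes that are switched on by removal of a propeptide, in part by plasmin and by other MMPs. TIMP1 and TIMP2 bind the active enzymes, and TIMP2 also links proMMP2 to MMP14 at the cell surface for activation. Macrophages are the main source of MMP12, the macrophage elastase, and release MMP9 in inflamed tissue and tumors. Type I interferons are known to repress some MMP genes, Mmp9 among them, in several cell types.

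Library totals ran from 31526034 to 45348457 expected counts. The macrophage markers Adgre1 (1484 to 1836 CPM, counts per 1000000 counts of the library) and Csf1r (1023 to 1189 CPM) were high in every library. Of the 8 genes of the macrophage list, 4 rose and 3 fell with IFNβ in both comparisons, and Csf1r did not pass. Of all genes, 30.1% rose and 25% fell with Ifnb1eGFP against eGFP supernatant. With rIFNβ against untreated control 30.7% rose and 24.6% fell. The Fc receptor Fcgr1 rose from a mean of 52.6 CPM in untreated cells to 1155 CPM with rIFNβ, while the integrin Itgam fell from 1454 to 323 CPM, lysozyme (Lyz2) from 9415 to 3472 CPM and Cd14 from 299 to 154 CPM. The summed level of the list was 14396 to 18802 CPM without IFNβ and 9818 to 10720.3 CPM with it. Of the IL4-type markers, Mrc1 (609 to 839 CPM), Chil3 (63.2 to 129 CPM) and Retnla (45.4 to 71.3 CPM) were well detected, and Arg1 was low at 0.208 to 0.877 CPM. A melanoma marker list was near 0, at a summed 0.223 to 0.81 CPM, with Tyrp1 at 0 counts in all 12 libraries. Replicate 2 of the eGFP supernatant stood apart in interferon-stimulated genes, with Irf7 at 45.2 CPM where the other libraries of that condition had 11.0 and 6.63 CPM and the untreated libraries 5.25 to 11.3 CPM. Values without it are given where it bears on a result. In bulk RNA, fewer cells of a type and less RNA per cell cannot be told apart.

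The first question was what IFNβ does to these transcripts, from tumor cells (Ifnb1eGFP against eGFP supernatant) or as recombinant protein (rIFNβ against untreated control). In both comparisons Mmp12, Mmp9, Mmp19, Mmp8 and Timp2 fell, Mmp13 and Mmp27 rose, and Mmp2, Mmp14 and Timp1 did not pass the test. The 7 changed genes ran from a 34.1-fold fall of Mmp9 to a 1.45-fold fall of Timp2 in the supernatant comparison. The call needed an adjusted p (Benjamini-Hochberg, 15033 genes) no higher than 0.05 in the quasi-likelihood fit of edgeR. With supernatant, 2 members rose where 30.1% of all genes rose, and 5 fell where 25% of all genes fell. With rIFNβ the same counts, 2 and 5 of 10, stood beside 30.7% and 24.6% of all genes. The 3 libraries of each condition did not overlap for these 7 members in either comparison, against 59% and 66.1% of all genes. At the study's stricter limits (absolute log2 difference of at least 2, adjusted p of at most 0.01), Mmp12 and Mmp9 were lower in both comparisons, where 2.62% and 2.78% of all genes were lower. The median log2 difference of the 10 members was -0.16 with supernatant and -0.35 with rIFNβ, and that of all genes 0.03 and 0.04.

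**Figure D1:**
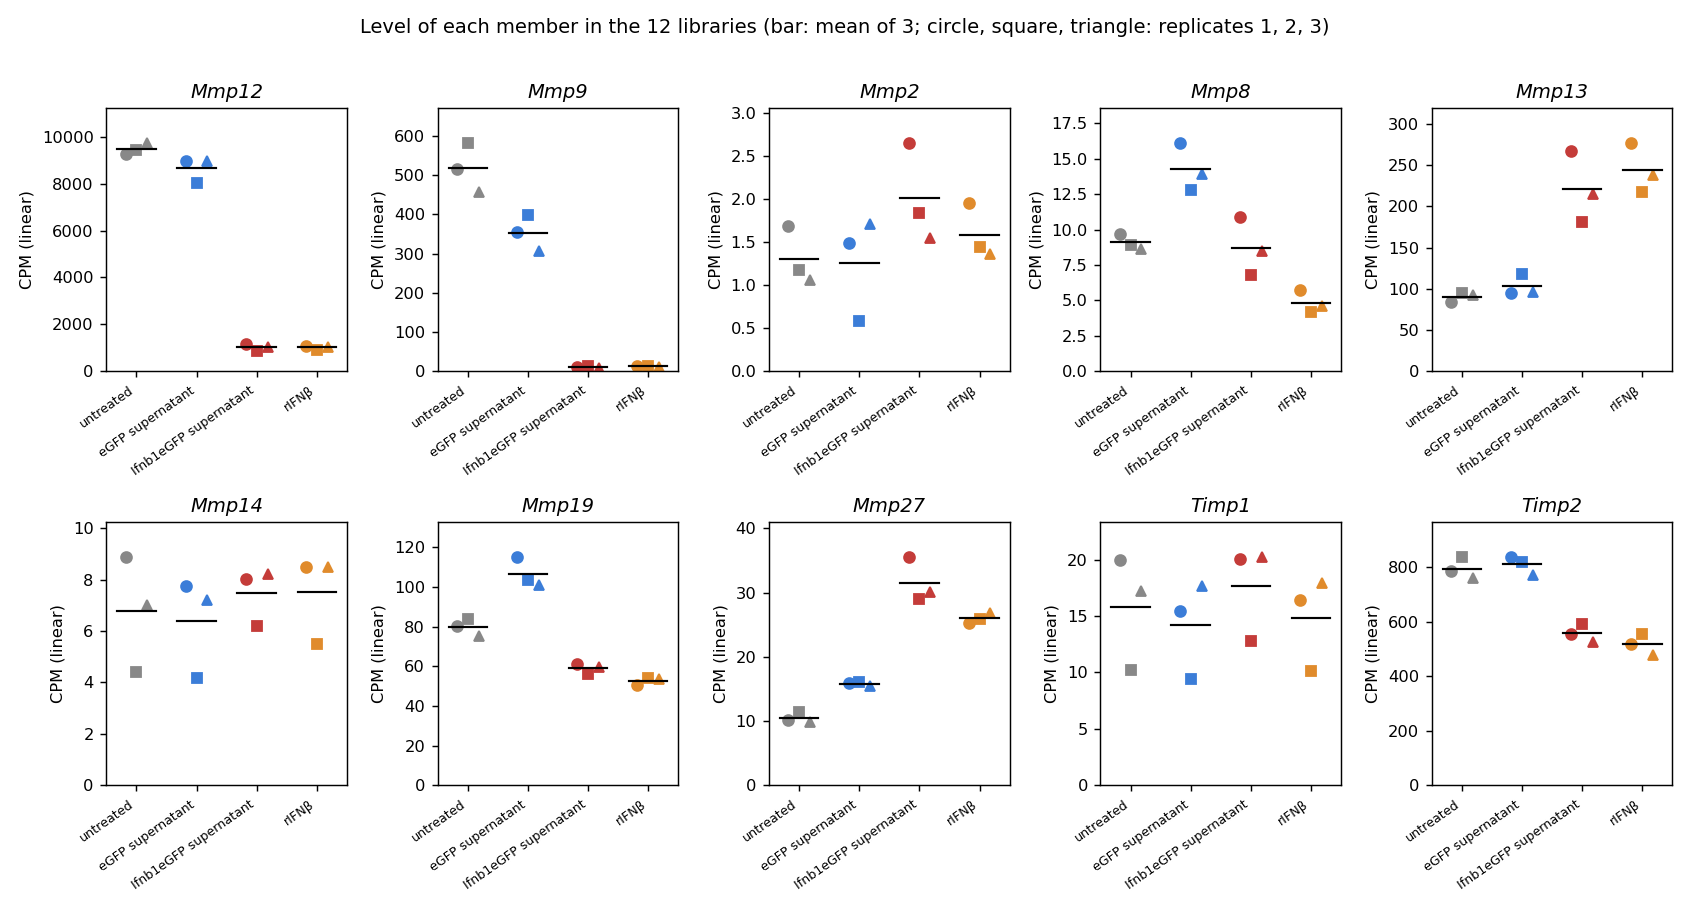
Level of each of the 10 genes in the 12 libraries in CPM on linear axes from 0, with a bar at the mean of 3 libraries and a symbol for each replicate number. Mmp12 and Mmp9 sat near the bottom of their axes in both IFNβ conditions, Mmp13 and Mmp27 rose there, and Timp1 and Mmp14 were lowest in replicate 2 (squares) of every condition.

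Mmp12 encodes the macrophage elastase, which cuts elastin and other matrix proteins, and lies on chromosome 9 from 7344381 to 7369499 (plus strand, GRCm39). Its level was 9273, 9456 and 9756 CPM in the untreated libraries and 8980.5, 8053 and 8959 CPM after eGFP supernatant. It was 1175, 862 and 1044 CPM with Ifnb1eGFP supernatant and 1084, 906 and 1050.3 CPM with rIFNβ. No library with IFNβ came near a library without it. Mmp12 ranked 9 by CPM among all genes of the table in untreated cells and 97 with Ifnb1eGFP supernatant. It took 0.925% to 0.98% of all counts in untreated libraries and 0.0847% to 0.118% with Ifnb1eGFP supernatant. The fall was 8.43-fold with supernatant (log2 difference -3.08 ± 0.11 SE, n = 3 per condition, adjusted p = 1.69e-09 by edgeR) and 9.37-fold with rIFNβ (-3.23 ± 0.11, adjusted p = 1.07e-09 by edgeR). Without eGFP supernatant replicate 2, the lowest library of its condition, the log2 difference was -3.13 ± 0.12. The macrophage markers Itgam, Lyz2 and Cd14 fell in the same libraries while Adgre1, Cd68, Mertk and Fcgr1 rose, and their part in the fall of Mmp12 and Mmp9 was not tested.

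Mmp9 and Mmp2 encode the gelatinases, which cut denatured collagen and the type IV collagen of basement membranes. Mmp9 (chromosome 2, 164780439 to 164797771, plus strand) stood at 517, 583 and 456 CPM in untreated cells and 355, 398 and 307 CPM after eGFP supernatant. With Ifnb1eGFP supernatant it stood at 9.81, 12.8 and 8.43 CPM, and with rIFNβ at 13.4, 13.8 and 11.7 CPM. The highest of the 6 IFNβ libraries was thus far below the lowest of the others. Mmp9 fell from rank 245 of all genes in untreated cells to rank 8206 with Ifnb1eGFP supernatant. Its log2 difference was -5.09 ± 0.17 with supernatant (34.1-fold lower, adjusted p = 1.03e-09 by edgeR) and -5.32 ± 0.17 with rIFNβ (40.0-fold lower, adjusted p = 7.12e-10 by edgeR), and it had the largest change of the 10 members in both.

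Mmp9 is also a gene of osteoclasts and neutrophils, so markers of both were read beside it. Of the osteoclast list (7 genes, 5 tested), all 5 tested fell in both comparisons, against 25% and 24.6% of all genes. Their summed level, mostly from Atp6v0d2 of the vacuolar proton pump, was 1467 to 1573 CPM in untreated libraries, 1427 to 1560.3 CPM after eGFP supernatant, 916 to 1067 CPM with Ifnb1eGFP supernatant and 858 to 870.2 CPM with rIFNβ. Dcstamp, which is needed for fusion of osteoclasts and macrophages, went from a mean of 81.9 CPM in untreated cells to 3.01 CPM with rIFNβ. Between the same conditions Ctsk went from 30.2 to 9.21 CPM and Acp5 from 25.0 to 19.1 CPM. Calcr was at 0 counts in all 12 libraries and Oscar at no more than 7. Of the neutrophil list (11 genes, 3 tested), Csf3r rose and S100a8 and Cxcr2 fell in both. The summed neutrophil level was 26.8 to 32.6 CPM without and 48.1 to 54.5 CPM with IFNβ. Csf3r had a mean of 22.0 CPM in untreated cells and 49.8 CPM with rIFNβ, and S100a8 5.03 and 0.272 CPM. The other 8 genes, Ly6g, Elane and Mpo among them, had at most 10 counts in any library. Their part in the fall of Mmp9 was not tested.

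Mmp2, the constitutive gelatinase of stromal cells, was the least abundant of the 10 genes. It had 1.68, 1.17 and 1.06 CPM in untreated cells, 1.49, 0.585 and 1.71 CPM after eGFP supernatant, 2.65, 1.84 and 1.54 CPM with Ifnb1eGFP supernatant and 1.96, 1.44 and 1.36 CPM with rIFNβ. These are 24 to 105 counts per library, and the conditions overlapped. The log2 difference was 0.67 ± 0.35 with supernatant (95% interval -0.10 to 1.44, adjusted p = 0.127 by edgeR) and 0.28 ± 0.36 with rIFNβ (-0.51 to 1.07, adjusted p = 0.535). Without eGFP supernatant replicate 2 the former was 0.33 ± 0.28. Its expected counts were not whole numbers in 12 of 12 libraries, so some of its reads were shared with other genes.

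Mmp13 and Mmp8 encode collagenases, which make the first cut in fibrillar collagen. Mmp13 (chromosome 9, 7272514 to 7283331, plus strand) moved against Mmp12 and Mmp9. Its level was 83.7, 94.3 and 92.7 CPM in untreated cells, 94.6, 118 and 96.3 CPM after eGFP supernatant, 267, 181 and 215 CPM with Ifnb1eGFP supernatant and 277, 217 and 238 CPM with rIFNβ. All 6 libraries with IFNβ were above all 6 without. The rise was 2.15-fold with supernatant (1.10 ± 0.14, adjusted p = 4.18e-05 by edgeR) and 2.70-fold with rIFNβ (1.43 ± 0.14, adjusted p = 4.93e-06 by edgeR). eGFP supernatant replicate 2 was the highest of its condition, and without it the supernatant difference was 1.21 ± 0.15.

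Mmp8, the collagenase first known from neutrophils (chromosome 9, 7558457 to 7568487, plus strand), was low throughout. It had 9.70, 8.93 and 8.66 CPM in untreated cells, 16.1, 12.8 and 14.0 CPM after eGFP supernatant, 10.9, 6.78 and 8.49 CPM with Ifnb1eGFP supernatant and 5.73, 4.18 and 4.60 CPM with rIFNβ. Each IFNβ condition was below its own control, but the Ifnb1eGFP supernatant libraries overlapped the untreated ones. The fall was 1.64-fold with supernatant (-0.71 ± 0.16, adjusted p = 0.00287 by edgeR) and 1.89-fold with rIFNβ (-0.92 ± 0.17, adjusted p = 0.000755 by edgeR). Of the tested neutrophil markers, S100a8 and Cxcr2 fell and Csf3r rose in both comparisons. The neutrophil granule genes Elane and Mpo had at most 10 counts in the same libraries. The part of neutrophils in the level of Mmp8 was not tested.

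Mmp19, a secreted proteinase that cuts basement membrane proteins, and Mmp27, a little-studied family member, moved in opposite directions with IFNβ. Mmp19 (chromosome 10, 128626773 to 128636695, plus strand) had 80.3, 84.0 and 75.3 CPM in untreated cells, 115, 103 and 101 CPM after eGFP supernatant, 61.3, 56.2 and 59.4 CPM with Ifnb1eGFP supernatant and 50.6, 54.1 and 53.6 CPM with rIFNβ. The 4 conditions did not overlap each other. It fell 1.81-fold with supernatant (-0.85 ± 0.06, adjusted p = 4.13e-07 by edgeR) and 1.51-fold with rIFNβ (-0.60 ± 0.06, adjusted p = 7.47e-06 by edgeR). As for Mmp2, its expected counts were not whole in 12 of 12 libraries, while those of the other 8 members were.

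Mmp27 (chromosome 9, 7571397 to 7581891, plus strand) had 10.1, 11.3 and 9.91 CPM in untreated cells, 15.9, 16.0 and 15.4 CPM after eGFP supernatant, 35.6, 29.1 and 30.0 CPM with Ifnb1eGFP supernatant and 25.2, 25.9 and 26.8 CPM with rIFNβ. These 4 groups did not overlap either, and Ifnb1eGFP supernatant held the highest. The rise was 2.00-fold with supernatant (1.00 ± 0.08, adjusted p = 8.43e-07 by edgeR) and 2.49-fold with rIFNβ (1.31 ± 0.08, adjusted p = 1.04e-07 by edgeR).

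Mmp14 encodes a membrane-anchored MMP that cuts collagen at the cell surface and activates proMMP2. It had 8.90, 4.42 and 7.03 CPM in untreated cells, 7.76, 4.19 and 7.23 CPM after eGFP supernatant, 8.02, 6.21 and 8.23 CPM with Ifnb1eGFP supernatant and 8.51, 5.49 and 8.51 CPM with rIFNβ. The 4 conditions overlapped. The log2 difference was 0.23 ± 0.28 with supernatant (95% interval -0.39 to 0.85, adjusted p = 0.515 by edgeR) and 0.14 ± 0.28 with rIFNβ (-0.48 to 0.76, adjusted p = 0.696 by edgeR). Without eGFP supernatant replicate 2 the supernatant difference was -0.00072 ± 0.27, and without replicate 2 of every condition it was 0.12 ± 0.12.

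Of the inhibitors, Timp2 was abundant and fell, and Timp1 was low and did not pass the test in the main fit. Timp2 (chromosome 11, 118191887 to 118246566, minus strand) had 785, 836 and 759 CPM in untreated cells, 838, 819.7 and 771 CPM after eGFP supernatant, 555, 589 and 525 CPM with Ifnb1eGFP supernatant and 519, 553 and 478 CPM with rIFNβ. The 6 libraries with IFNβ were all below the 6 without. It fell 1.45-fold with supernatant (-0.54 ± 0.07, adjusted p = 2.74e-05 by edgeR), and with rIFNβ it was 1.54-fold (-0.62 ± 0.07, adjusted p = 8.71e-06 by edgeR). Timp1, on chromosome X, had 20.0, 10.2 and 17.2 CPM in untreated cells, 15.5, 9.45 and 17.7 CPM after eGFP supernatant, 20.0, 12.8 and 20.3 CPM with Ifnb1eGFP supernatant and 16.4, 10.1 and 17.9 CPM with rIFNβ. Its log2 difference was 0.32 ± 0.30 with supernatant (95% interval -0.35 to 0.99, adjusted p = 0.401 by edgeR) and -0.10 ± 0.31 with rIFNβ (-0.77 to 0.58, adjusted p = 0.814 by edgeR). Without eGFP supernatant replicate 2 the former was 0.10 ± 0.30. Once the fit held the replicate number as a block, the supernatant difference was 0.33 ± 0.08 and passed (adjusted p = 0.00539 by edgeR). The rIFNβ difference did not pass with the block either.

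Replicate 2 held the lowest Timp1 and the lowest Mmp14 of every condition, at 64.6% to 72.4% of the condition mean for Timp1 and 65.2% to 82.9% for Mmp14. The summed level of 8 stromal markers (collagens, Dcn, Pdgfra, Postn and others) was lowest in the same 4 libraries, at 44 to 58.8 CPM, against 63.3 to 104 CPM in the other 8. Of this list, 2 genes rose (Dcn and Pdgfra) and 2 fell with Ifnb1eGFP supernatant, where 30.1% of all genes rose and 25% fell. With rIFNβ, 2 rose and 3 fell, where 30.7% of all genes rose and 24.6% fell. Means after eGFP and Ifnb1eGFP supernatant were 11.8 and 0.95 CPM for Postn and 8.97 and 31.2 CPM for Dcn. For Col1a1 they were 16.8 and 8.24 CPM. Without replicate 2 of every condition, Timp1 differed by 0.28 ± 0.10 with supernatant (adjusted p = 0.0545 by edgeR) and by -0.11 ± 0.10 with rIFNβ (adjusted p = 0.413 by edgeR). The part of stromal cells in the levels of Timp1, Mmp14 and Mmp2 was not tested.

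**Figure D2:**
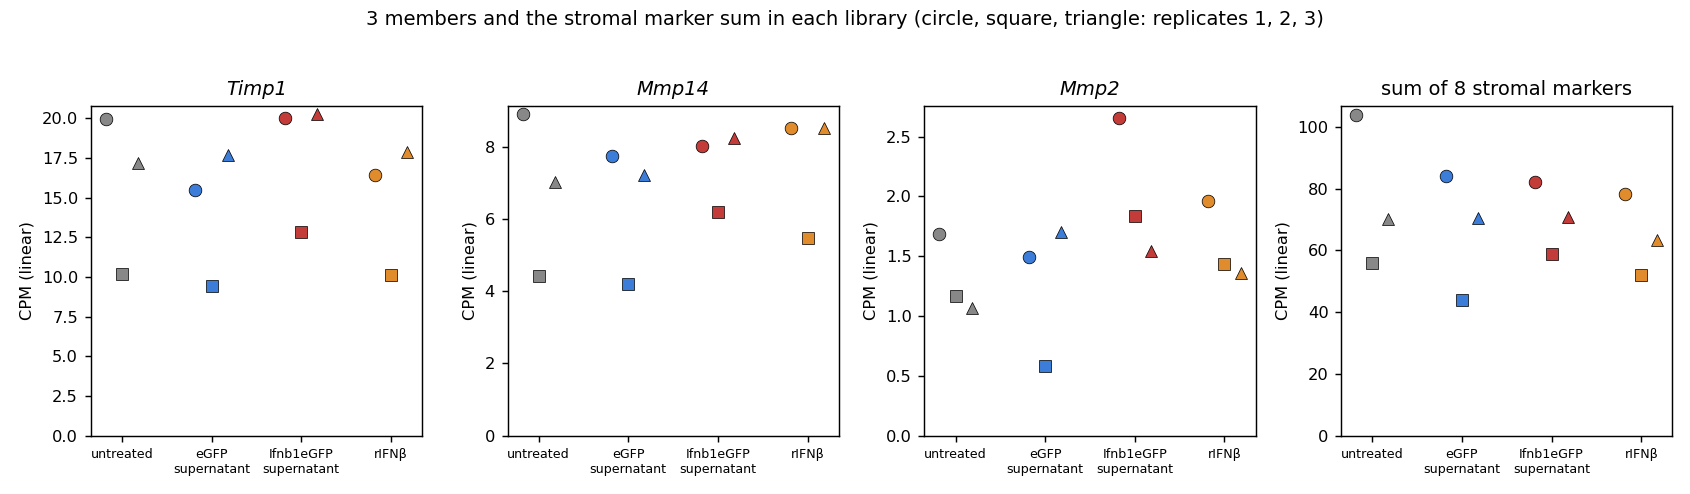
Timp1, Mmp14, Mmp2 and the summed level of 8 stromal markers in each library, in CPM on linear axes from 0, with circles, squares and triangles for replicates 1, 2 and 3. The squares are the lowest points of every condition for Timp1, Mmp14 and the marker sum, and for Mmp2 only with eGFP supernatant.

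**Figure D3:**
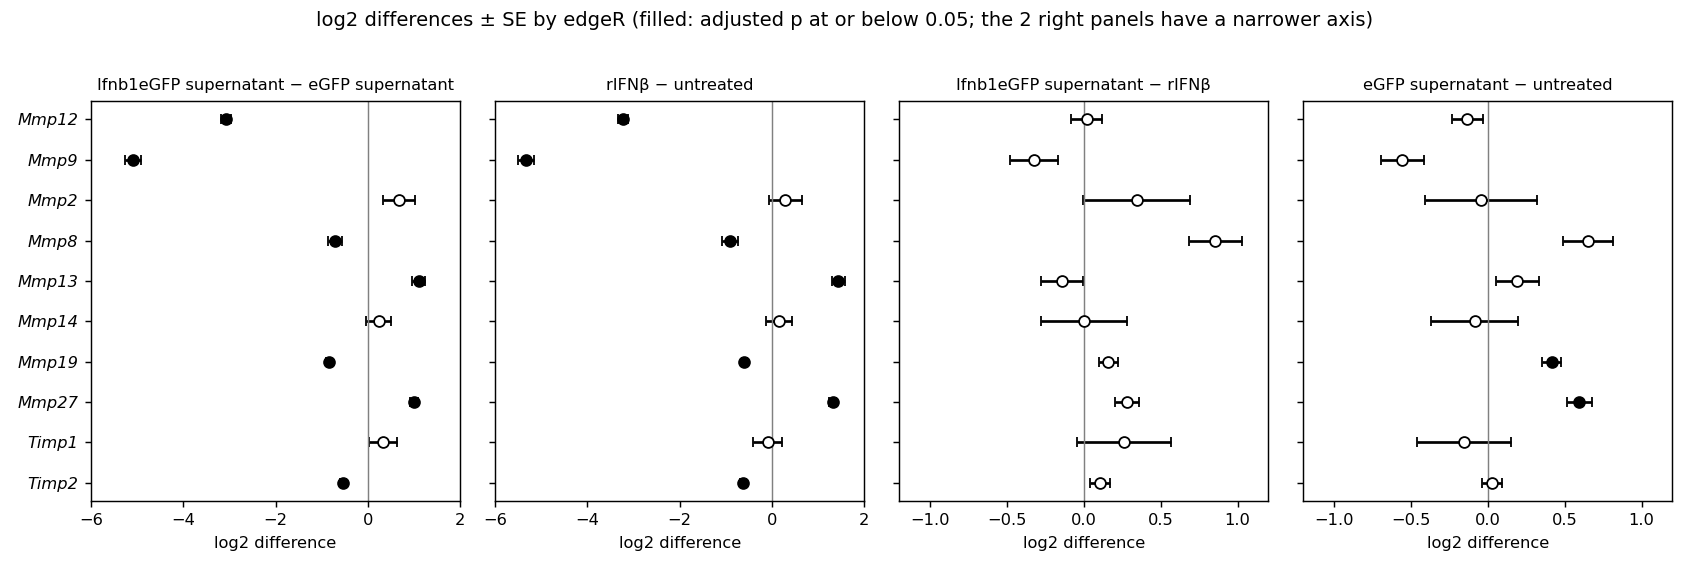
Log2 differences ± SE of the 10 genes in 4 comparisons, each point from 3 libraries against 3, filled where the adjusted p was at most 0.05 by edgeR. The 7 filled points of the left panels are the same genes in both, at -5.09 (Mmp9) to 1.10 (Mmp13) with supernatant, and Mmp19 and Mmp27 are the only filled points of the other panels, which have a narrower axis.

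Levels of different genes were compared per length, as CPM per kilobase of the gene's merged exons. In untreated cells the order was Mmp12 (1312 ± 33.7 SD), Timp2 (178 ± 8.87), Mmp9 (140.1 ± 17.2), Mmp13 (33.8 ± 2.15), Mmp19 (22.6 ± 1.24), Timp1 (8.08 ± 2.57), Mmp27 (4.72 ± 0.346), Mmp8 (3.75 ± 0.222), Mmp14 (1.10 ± 0.365) and Mmp2 (0.37 ± 0.0939), and no neighbours in it overlapped. With eGFP supernatant the order was the same, but Timp1 and Mmp27 overlapped. With Ifnb1eGFP supernatant Mmp12 (142 ± 21.7) and Timp2 (125 ± 7.21) overlapped at the top, Mmp13 (82.7 ± 16.2) came next and Mmp9 (2.80 ± 0.609) was at rank 8, overlapping Mmp8. The tie of Mmp12 and Timp2 depended on the length used, since per kilobase of the median transcript their means were 707 and 155. In that condition Mmp19 and Mmp27 also overlapped. With rIFNβ the order was Mmp12 (140 ± 13.1), Timp2 (116 ± 8.37) and Mmp13 (91.3 ± 11.5), with Mmp9 at rank 7 and no overlap between neighbours. Lower ranks also depended on the length used. Per kilobase of the median transcript, Mmp14 ranked 7 rather than 9 in untreated cells. Timp1 then ranked 4 rather than 6 in both IFNβ conditions.

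The 8 proteinases summed to 1518 ± 28.6 CPM per kilobase (SD, n = 3) in untreated cells, 1376 ± 60.4 with eGFP supernatant, 264 ± 40.6 with Ifnb1eGFP supernatant and 265 ± 23.7 with rIFNβ. Mmp12 made up 86.4% of this sum in untreated cells and 52.8% with rIFNβ, Mmp9 9.23% and 1.33%, and Mmp13 2.22% and 34.4%. With the median transcript length of each gene in place of its merged exons the shares were 92.4% and 83.1% for Mmp12, 6.52% and 1.38% for Mmp9 and 0.477% and 10.9% for Mmp13. Without Mmp12, the other 7 summed to 206 ± 19.0 CPM per kilobase in untreated cells and 125 ± 11.4 with rIFNβ. The 2 inhibitors summed to 186 ± 6.93 CPM per kilobase in untreated cells, 189 ± 6.96 with eGFP supernatant, 134 ± 5.35 with Ifnb1eGFP supernatant and 123 ± 6.48 with rIFNβ. The proteinase sum was 8.18 ± 0.361 times the inhibitor sum in untreated cells, 7.30 ± 0.387 times with eGFP supernatant, 1.98 ± 0.332 times with Ifnb1eGFP supernatant and 2.16 ± 0.256 times with rIFNβ. The libraries with and without IFNβ did not overlap in this ratio. For any single pair of conditions, 3 libraries against 3 cannot give an exact permutation p under 0.1. The size of the ratio depended on the length used. With the median transcript length of each gene it was 29.7 ± 1.36 in untreated cells and 5.25 ± 0.594 with rIFNβ, and Mmp9 then ranked above Timp2 in the conditions without IFNβ.

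**Figure D4:**
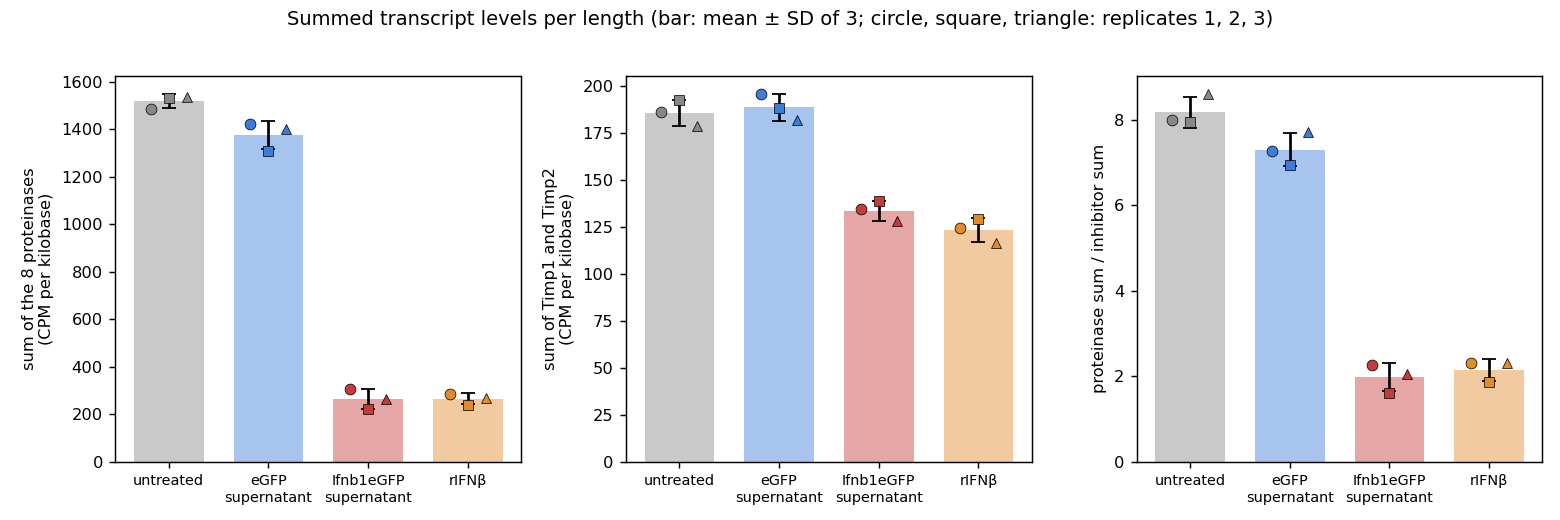
Summed level of the 8 proteinase genes, of Timp1 and Timp2, and their ratio, in CPM per kilobase of merged exons, with bars from 0 at the mean ± SD of 3 libraries and a symbol for each library. The ratio is 6.93 to 8.60 in the 6 libraries without IFNβ and 1.61 to 2.31 in the 6 with it.

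Mmp12, Mmp13, Mmp8 and Mmp27 lie in a row of 10 Mmp genes on chromosome 9. In order of position the row reads Mmp13, Mmp12, Mmp1b, Mmp3, Mmp1a, Mmp10, Mmp8, Mmp27, Mmp20 and Mmp7, all on the plus strand but Mmp1b. Neighbours moved apart: Mmp13 rose beside Mmp12, which fell, and Mmp27 rose beside Mmp8, which fell. Between these pairs, Mmp3 had 1.37 to 5.19 CPM and Mmp10 1.02 to 3.77 CPM, and neither passed the test in either IFNβ comparison (Mmp10 adjusted p = 0.0634 with supernatant by edgeR). Mmp1a had 0 to 3 counts per library, and Mmp20 and Mmp7 had 0 counts in all 12. Mmp1b overlaps the end of Mmp12 on the other strand and had at most 3 counts in a library, so it took few of the reads there.

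**Figure D5:**
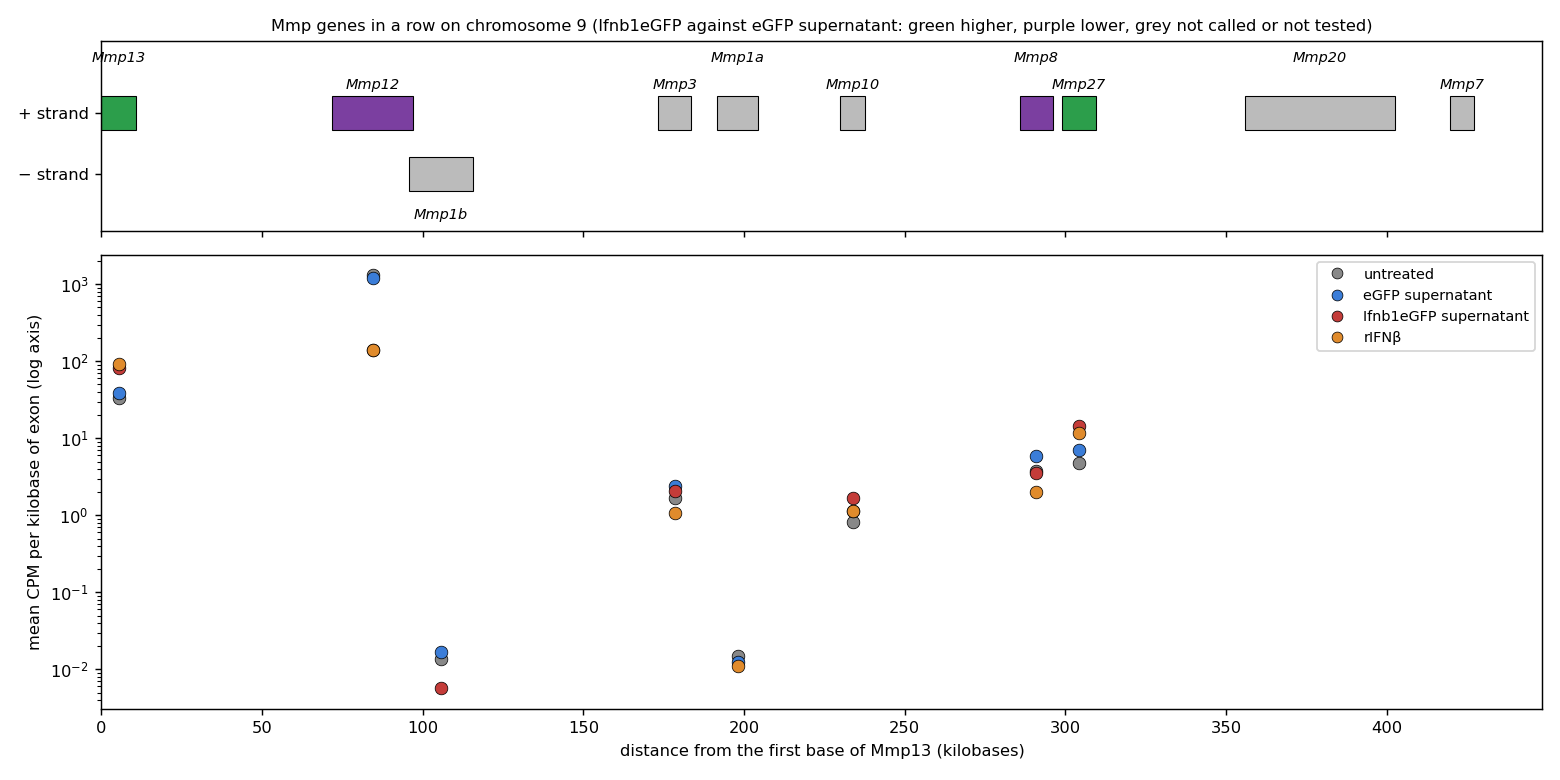
The 10 Mmp genes of the chromosome 9 row by distance from the start of Mmp13 in kilobases (top, by strand) and their mean CPM per kilobase of merged exons in the 4 conditions (bottom, log axis). Mmp13 and Mmp27 (green) were higher and Mmp12 and Mmp8 (purple) lower with Ifnb1eGFP than with eGFP supernatant, and means of 0, as for Mmp20 and Mmp7, are not drawn.

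The promoter sequences of these 4 genes are printed because adjacent genes moved in opposite directions. They come from RefSeq on GRCm38.p6, which held 7 of the 10 members, plus strand, and run from 250 to 21 bases before the transcript start. The positions are chr9:7272264-7272493 for Mmp13, chr9:7344147-7344376 for Mmp12 (the upstream of 2 starts listed), chr9:7558179-7558408 for Mmp8 and chr9:7571146-7571375 for Mmp27. Capitals mark matches, on either strand, to the TATA box motif TATAAA, the AP-1 motif TGANTCA, the ETS motif AGGAAG, the core GAAANNGAA of the interferon-stimulated response element or the GAS motif TTCNNNGAA.
Mmp13: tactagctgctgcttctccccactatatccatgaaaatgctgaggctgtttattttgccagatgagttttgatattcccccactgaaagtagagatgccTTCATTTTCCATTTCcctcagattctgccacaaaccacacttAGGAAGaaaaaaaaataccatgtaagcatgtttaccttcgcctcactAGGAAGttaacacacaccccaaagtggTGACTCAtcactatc
Mmp12: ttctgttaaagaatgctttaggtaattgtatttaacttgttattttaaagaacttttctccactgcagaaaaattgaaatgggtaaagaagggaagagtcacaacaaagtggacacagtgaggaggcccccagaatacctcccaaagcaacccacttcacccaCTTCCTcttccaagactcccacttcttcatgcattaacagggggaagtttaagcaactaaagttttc
Mmp8: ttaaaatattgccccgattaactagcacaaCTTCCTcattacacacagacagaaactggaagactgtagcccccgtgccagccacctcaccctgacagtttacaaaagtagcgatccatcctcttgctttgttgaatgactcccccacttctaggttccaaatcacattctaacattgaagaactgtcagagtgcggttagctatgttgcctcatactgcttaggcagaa
Mmp27: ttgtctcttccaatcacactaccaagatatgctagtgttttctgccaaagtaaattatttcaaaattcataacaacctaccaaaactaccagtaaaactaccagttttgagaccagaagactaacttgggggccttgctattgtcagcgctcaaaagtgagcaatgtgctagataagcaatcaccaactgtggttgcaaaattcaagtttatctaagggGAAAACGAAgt

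Mmp13 held 1 AP-1 match 35 to 29 bases before the start, 2 ETS matches and 2 overlapping response element matches between 151 and 137 bases before it. Mmp27 held a response element match 31 to 23 bases before the start and no other. Mmp12 and Mmp8 each held 1 ETS match, at 87 to 82 and 220 to 215 bases before the start, and no other. Neither a TATA box nor a GAS match was found in the 4 windows. Among the 32851 promoters of the table, 6.53% held the response element core in the same window, 6.34% the AP-1 motif, 27.2% the ETS motif, 11.8% the TATA box and 6.48% the GAS motif. The motifs were chosen after the values were seen, and a match describes letters, not binding.

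The second question was whether the source of IFNβ mattered (Ifnb1eGFP supernatant against rIFNβ) and what the tumor supernatant did without IFNβ (eGFP supernatant against untreated control). These comparisons share libraries with those above. Between the IFNβ sources 0 of 10 members passed the adjusted test by edgeR, where 0.16% of all genes did, and 3 (Mmp8, Mmp19 and Mmp27) had an unadjusted p under 0.05, as did 8.57% of all genes, all 3 higher with supernatant. The libraries of these 3 did not overlap, against 12.8% of all genes. Mmp8 was 1.81-fold higher (0.86 ± 0.17, adjusted p = 0.114 by edgeR), Mmp27 1.21-fold (0.28 ± 0.08, adjusted p = 0.369) and Mmp19 1.12-fold (0.16 ± 0.06, adjusted p = 0.56). In this comparison libraries of the same replicate number deviated together, and once the fit held that number as a block Mmp8 passed (0.84 ± 0.10, adjusted p = 0.00937 by edgeR). Mmp8 also passed by DESeq2 (adjusted p = 0.000957) and without the filter on low counts (adjusted p = 0.00935), and Mmp8 and Mmp27 passed without Ifnb1eGFP supernatant replicate 2 (adjusted p = 0.0177 and 0.0374). Mmp12 differed by 0.02 (95% interval -0.20 to 0.24), Mmp9 by -0.32 (-0.67 to 0.02), Mmp13 by -0.14 (-0.45 to 0.16) and Timp2 by 0.11 (-0.04 to 0.25). A p that misses the threshold does not show that the IFNβ sources act alike on these genes.

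With eGFP supernatant, 2 of 10 members rose, Mmp27 1.51-fold (0.60 ± 0.08, adjusted p = 0.0107 by edgeR) and Mmp19 1.33-fold (0.42 ± 0.06, adjusted p = 0.0163 by edgeR), where 0.246% of all genes rose. The 3 libraries did not overlap for 6 of 10 members, against 15.5% of all genes. Mmp8 was 1.57-fold higher (0.65 ± 0.16, adjusted p = 0.178 by edgeR) and Mmp9 1.47-fold lower (-0.55 ± 0.14, adjusted p = 0.189 by edgeR) without passing. Both passed by DESeq2 (adjusted p = 0.0268 and 0.00735) and without the filter on low counts (both 0.0337). They also passed with the replicate number as a block (adjusted p = 0.0159 and 0.00489 by edgeR). Mmp19 and Mmp27 passed in none of the fits without untreated replicate 1, untreated replicate 3, eGFP supernatant replicate 1 or eGFP supernatant replicate 2, with log2 differences of 0.35 to 0.44 for Mmp19 and 0.56 to 0.59 for Mmp27. Without replicate 2 of every condition, adjusted p was 0.209 for Mmp19 and 0.208 for Mmp27 (differences 0.48 and 0.65).

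Over both pairs of conditions, with and without IFNβ, the mean supernatant effect was positive for Mmp8 (1.69-fold, 0.75 ± 0.12, adjusted p = 0.0138 by edgeR), Mmp27 (1.35-fold, 0.44 ± 0.06, adjusted p = 0.00438) and Mmp19 (1.22-fold, 0.29 ± 0.04, adjusted p = 0.0119), where 0.692% of all genes rose. Mmp9 was lower by 0.44 on the log2 scale without passing (adjusted p = 0.101 by edgeR). Mmp8 missed the threshold without untreated replicate 2 (adjusted p = 0.051), and Mmp19 without replicate 2 of every condition (adjusted p = 0.0806). Mmp12 (95% interval -0.21 to 0.10), Mmp13 (-0.19 to 0.24) and Timp2 (-0.03 to 0.17) had mean supernatant effects near 0. So Mmp19 rose with supernatant and fell with IFNβ, and Mmp27 rose with both. The interaction, the IFNβ effect with supernatant less that without, was called for 0 of 10 members and 0% of all genes by edgeR. An unadjusted p under 0.05 was found for Mmp19 (-0.26 ± 0.09) and Mmp27 (-0.31 ± 0.11), each with adjusted p = 0.926 by edgeR. It was also found for 661 of all genes (4.4%), and DESeq2 called 0 members for the interaction.

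Of the 8 other family genes that passed the filter, Mmp16 alone changed. It encodes a membrane-type MMP and rose from 2 to 8 counts in the 6 libraries without IFNβ to 26 to 54 with Ifnb1eGFP supernatant and 12 to 28 with rIFNβ. Its log2 difference was 2.78 ± 0.56 with supernatant (adjusted p = 0.0014 by edgeR) and 2.50 ± 0.62 with rIFNβ (adjusted p = 0.00482 by edgeR), and its highest library had 1.37 CPM. Mmp3, Mmp10, Mmp11, Mmp15, Mmp23, Mmp28 and Timp3 did not pass in any comparison. Timp3 had 0.149 to 1.09 CPM and was lowest in replicate 2 of every condition, like Timp1. The 9 that failed the filter (Mmp1a, Mmp1b, Mmp7, Mmp17, Mmp20, Mmp21, Mmp24, Mmp25 and Timp4) had at most 11 counts in a library.

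Genes around the MMPs were read from lists of activators, inhibitors and surface partners, related proteinases, matrix substrates and transcription factors. Of 20 partners tested, 5 rose and 11 fell with Ifnb1eGFP supernatant, and 4 and 12 with rIFNβ, with a median log2 difference of -0.63 and -0.67. Here too the background is the 30.1% and 30.7% of all genes that rose, the 25% and 24.6% that fell and the medians of 0.03 and 0.04. By the rule of largest changes, Thbs1 and Thbs2, thrombospondins that bind and restrain MMPs, rose in both comparisons. Their log2 differences were 1.45 ± 0.14 and 2.31 ± 0.44 with supernatant, and with rIFNβ Thbs1 went from a mean of 127 to 311 CPM and Thbs2 from 2.33 to 4.94 CPM. Thbs1 also rose with eGFP supernatant alone (0.89 ± 0.14, adjusted p = 0.0217 by edgeR). Serpine2, an inhibitor of plasminogen activators and thrombin, fell by 2.64 on the log2 scale with supernatant and by 3.49 with rIFNβ, and Itgb3, the integrin β3 chain, fell by 2.63 and 2.61. Plau and Plaur, the urokinase that makes plasmin and its receptor, were named after their values were seen. Plau fell by 1.51 and 1.29 and Plaur by 2.16 and 2.16 on the log2 scale.

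Of 12 ADAM and ADAMTS genes tested, relatives of the MMPs that shed surface proteins or cut proteoglycans, 4 rose and 6 fell with Ifnb1eGFP supernatant and 2 rose and 4 fell with rIFNβ (medians -0.32 and -0.19). Among all genes, 30.1% rose and 25% fell with Ifnb1eGFP supernatant, and 30.7% rose and 24.6% fell with rIFNβ. Adamts1 fell by 1.96 and 2.01 and Adam19 by 1.81 and 1.84 on the log2 scale. Adamts9 (1.93 ± 0.57) and Adamts5 (1.92 ± 0.45), both under 1 CPM on average, rose with Ifnb1eGFP supernatant, and with rIFNβ their differences of 0.81 and 0.80 did not pass (adjusted p = 0.244 and 0.157 by edgeR). Of 19 matrix and substrate genes, 2 rose and 9 fell in each comparison (medians -0.45 and -0.27), beside the same shares of all genes. Fn1, fibronectin, had a mean of 524 CPM in untreated cells and 22.1 CPM with rIFNβ (23.8-fold lower, -4.57 ± 0.26), and it fell by 4.29 on the log2 scale with supernatant. Col6a1, a collagen VI chain, fell by 1.82 and 1.59. Ltbp1, which anchors latent TGFβ in the matrix, rose by 2.03 and 1.83, and Vcan, the proteoglycan versican, by 1.70 and 0.90. Some genes of this list (Col1a1, Col1a2 and Col3a1) are stromal markers too.

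Of 21 AP-1, ETS and Maf family transcription factors, which are known regulators of MMP genes, 10 rose and 4 fell in each comparison (medians 0.25 and 0.23). Among all genes, 30.1% and 30.7% rose and 25% and 24.6% fell in these comparisons. Batf (1.12 ± 0.22 and 1.97 ± 0.24) and Elf1 (1.11 ± 0.05 and 1.08 ± 0.05) had the largest rises with Ifnb1eGFP supernatant. Batf3 fell by 1.43 and 1.06 on the log2 scale. Jund fell by 0.86 with supernatant, and its difference of -0.66 with rIFNβ did not pass (adjusted p = 0.105 by edgeR). Spi1, which encodes the myeloid ETS factor PU.1, was named after its values were seen and differed by 0.09 and 0.26 without passing.

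For each member, the genes with the most similar pattern over the 12 libraries were found by the root mean square distance between log2 profiles centred on their means. Plxdc2 was nearest to Mmp12 (0.09, beside a range of 3.50 for Mmp12 itself), followed by Pde1c (0.17). Itgax, the integrin CD11c, and Jsrp1 were nearest to Mmp9 (0.27 and 0.32, over a range of 6.11). Nemp1 and Scimp were nearest to Mmp13 (both 0.13), Gm10134 and Marcks to Mmp27 (0.11 and 0.12), Itga6 and Tceal9 to Mmp19 (0.10 and 0.11), and Bcl2a1b and Gm56862 to Mmp8 (0.21 and 0.24). Sel1l and Pitpnc1 were nearest to Timp2 (0.04 and 0.05). Timp1 and Mmp14 were nearest to each other (0.14), followed by Cnn3 for Timp1 and Ccdc80 for Mmp14 (0.17 and 0.16). Mmp2 had Egln3 and Golm2 nearest (0.20 and 0.24). These distances describe likeness over 12 libraries that share treatments and carry no test.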

How the data were processed

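Libraries of 12 macrophage cultures were prepared by the authors from total RNA (600 ng, TruSeq Stranded Total RNA). The authors deposited unnormalized expected counts per Ensembl gene from RSEM 1.3.3. The methods join the names of the builds GRCm39 and mm10, and the positions given here are GRCm39 (GENCODE M39). The strand setting of the counting was not given in the sources used here.

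Expected counts were rounded and tested in R 4.3.3 with edgeR 4.0.16 (filterByExpr, TMM factors, 1 quasi-likelihood fit over all 12 libraries, Benjamini-Hochberg over 15033 genes). CPM used normalized totals. The SE was the log2 difference over the root of F. A prior count of 2 was used only for the log2 profiles of the nearest-gene search. The fit was tested on simulated data. Averaged over the tested genes, counting error at this depth was below the spread between replicates (chi-square per degree of freedom 5.59 to 57.1). The highest value was between replicates 1 and 2 of Ifnb1eGFP supernatant, and the next, 24.8, between its replicates 2 and 3. Such means give no value for single genes with few counts, such as Mmp2 or Mmp16. With 3 libraries against 3, single values have no exact p under 0.1.

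The members and the gene lists were chosen with earlier results of these data known. The text names all members, all other Mmp and Timp genes tested, from each companion list the 2 largest rises and 2 largest falls among genes changed with Ifnb1eGFP supernatant, and the 2 nearest profiles per member. Replicate numbers come from the sample titles, and what they stand for is not stated. The main fit held the condition only, with no replicate block in any comparison, and the block was run as an alternative for all. Same-numbered libraries correlated in their deviations at 0.17, 0.244 and 0.202 between Ifnb1eGFP supernatant and rIFNβ. In every other comparison at least 1 such pair was under 0.1. Over all conditions 13 of 18 same-numbered pairs were over 0.1, so a shared replicate effect is not limited to the IFNβ sources. Alternatives were DESeq2 1.42.0, RLE factors, library totals, unrounded counts, no filter, the replicate block, fits of the compared conditions only and each library left out. The marker and companion lists also covered dendritic and mast cell markers, of which 1 each passed the filter (Zbtb46 and Gata2), both lower with IFNβ.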

Additional observations from a re-analysis of the deposited data

How the results depend on the processing

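The counts of members changed by IFNβ (7 of 10 with Ifnb1eGFP supernatant and with rIFNβ), the counts past the stricter limits, the 3 with a mean supernatant effect and the 0 of the interaction stayed within 1.5 times under every alternative run. Of 940 single log2 differences recomputed, 876 kept their direction and their side of the threshold, 16 newly passed, 13 no longer passed, and 35 that passed in neither fit changed sign. Between Ifnb1eGFP supernatant and rIFNβ the count went from 0 to 1 with DESeq2, without the filter and with the replicate block (Mmp8 in each), and ran from 0 to 2 when a library was left out. For eGFP supernatant against untreated control it went from 2 to 4 with DESeq2, without the filter and with the replicate block, which added Mmp8 and Mmp9, to 1 when the other conditions were left out of the fit (Mmp27), and ran from 0 to 2 when a library was left out. The fit without replicate 2 of all conditions, added after seeing the data, gave 0 there. What the replicate numbers share is not stated, and outside the comparison of IFNβ sources not every same-number correlation was over 0.1. The replicate block moved Timp1 past the threshold with Ifnb1eGFP supernatant (0.33, adjusted p = 0.00539 by edgeR) and raised the genes changed by eGFP supernatant from 45 to 122 of all tested, and same-numbered correlations ran from 0.0557 to 0.251 over 18 pairs, each above those with other numbers in the 4 comparisons except replicate 1 of Ifnb1eGFP against eGFP supernatant. Mmp9 passed in the mean supernatant effect with DESeq2, without the filter, with the block and without Ifnb1eGFP supernatant replicate 2. The cause of these differences was not tested. Mmp2 had at most 105 counts in a library, so depth limits what can be seen of it.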
